A study of Mus musculus with 8 samples.

Results

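Gasdermins are the pore proteins of pyroptosis, an inflammatory form of cell death. 9 of the 55114 genes in the deposited table are described here: the gasdermins Gsdmd, Gsdme, Gsdmc, Gsdmc2, Gsdmc3 and Gsdmc4, the inflammatory caspases Casp1 and Casp4, and the cytokine gene Il18. They were taken by symbol, and they were chosen with the comparison of these same knock-out (KO) and wild type (WT) mice already known. Their difference between genotypes is therefore given as values with no test. 8 of the 9 passed the filter on low counts, which 16109 genes passed, and Gsdmc did not.

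In pyroptosis, sensors such as NLRP6 or the NAIP proteins assemble an inflammasome that activates caspase-1, while caspase-4 (also called caspase-11 in mice) binds bacterial lipopolysaccharide directly. The active caspases cut gasdermin D in its linker, and the freed amino-terminal part oligomerises into pores in the plasma membrane. Caspase-1 also matures the cytokine IL-18, which leaves through these pores, and caspase-3 cuts gasdermin E. In the intestine the pathway is known for the expulsion of infected epithelial cells, and the Gsdmc genes are known as epithelial genes induced by type 2 cytokines through STAT6.

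The mice were given as C57BL/6, 8 weeks old, and the groups were 4 Mex3a-/- mice (KO) and 4 littermate controls labelled Ctrl (WT). The KO allele is constitutive, so Mex3a, which encodes an RNA-binding protein, was deleted in every cell of the body and not in the epithelium alone. Crypts were released with EDTA from the intestine, whose region the labels do not give, and their RNA was sequenced in bulk. In such data, fewer cells of a type and less RNA per cell cannot be told apart. Values are CPM, read counts scaled to library size with the TMM factors of edgeR, for differences between mice, and FPKM, which divides by gene length, for differences between genes.

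Mex3a was read first, as the check of the labels. It stood at 12.4, 11.0, 16.0 and 13.7 CPM in WT mice 1 to 4 and at 0.84, 1.09, 0.26 and 0.27 CPM in KO mice 1 to 4, a log2 fold change of -4.43 ± 0.43 (SE, edgeR), and every library matched its label. It was the only one of the 16109 genes tested, 0.00621%, with an adjusted p under 0.05 in edgeR's quasi-likelihood test with Benjamini-Hochberg adjustment. With the mouse number as a block no gene passed, and DESeq2 called 93. Total counts were 20324184 to 24726221 in WT and 23489180 to 30654105 in KO libraries. Mitochondrial genes took 6.60% to 11.6% of counts in WT and 5.63% to 8.87% in KO mice. Mice 1 and 2 of both genotypes carried Y-linked Ddx3y transcripts and mice 3 and 4 Xist, so each genotype held both sexes in equal number. The Paneth cell marker Pla2g2a stood at 3927, 49.5, 1318 and 1767 CPM in WT mice 1 to 4. In KO mice 1 to 4 it stood at 1090, 57.1, 63.4 and 74.6 CPM. Aim2 stood at 20.2 to 25.1 CPM in WT mice 1 and 3 and KO mouse 1, and at 5.58 to 8.85 CPM in the others. Nlrp1b had 0 counts in KO mouse 1 and 23 to 75 in the others. Whether all mice shared the same genetic background was not tested. Epithelial markers were abundant in all mice (Epcam 1555 to 1700 CPM), whereas the distal colon genes Hoxb13 and Hoxd13 had no count in any mouse.

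The Gsdmc genes lie next to each other on chromosome 15 of GRCm38, on the minus strand, within 136 kb: Gsdmc at chr15:63775968-63808759, Gsdmc2 at chr15:63824346-63845177, Gsdmc3 at chr15:63857724-63878558 and Gsdmc4 at chr15:63891264-63912297. They are shown side by side because their likeness decides how far their counts can be told apart. The first 90 coding bases of each, from the GENCODE M21 transcripts, are printed with the 11 positions at which any of the 4 differ in capitals.
Gsdmc: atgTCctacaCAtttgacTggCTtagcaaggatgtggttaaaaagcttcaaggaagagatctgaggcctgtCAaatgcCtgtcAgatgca
Gsdmc2: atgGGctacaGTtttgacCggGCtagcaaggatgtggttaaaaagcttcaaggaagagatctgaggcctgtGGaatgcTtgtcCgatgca
Gsdmc3: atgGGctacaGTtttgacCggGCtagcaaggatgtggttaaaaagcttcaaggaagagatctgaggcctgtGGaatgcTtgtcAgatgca
Gsdmc4: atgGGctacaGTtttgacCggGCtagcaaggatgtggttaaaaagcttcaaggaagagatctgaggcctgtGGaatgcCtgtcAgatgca
These stretches lie in coding exons at chr15:63804503-63804592, chr15:63835854-63835943, chr15:63869208-63869297 and chr15:63902841-63902930. Only 2 of the 90 positions differ among Gsdmc2, Gsdmc3 and Gsdmc4. Over the whole coding sequence Gsdmc2 and Gsdmc3 share 97.1% of bases, Gsdmc2 and Gsdmc4 93.3%, and Gsdmc3 and Gsdmc4 93.4%, whereas Gsdmc shares 83.3% to 84.5% with the others. Of all stretches of 100 bases in their transcripts, 28.6% in Gsdmc2, 28.4% in Gsdmc3, 20.2% in Gsdmc4 and 7.03% in Gsdmc also occur in another of the Gsdmc genes. How reads that match several genes were counted is not given in the sources used here, so the split of reads among Gsdmc2, Gsdmc3 and Gsdmc4 is uncertain.

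Gsdmd, Gsdme and Il18 encode proteins that caspases cut to make them active. The coding bases around the known cut sites are printed with the 4 codons in front of the cut in capitals.
Gsdmd: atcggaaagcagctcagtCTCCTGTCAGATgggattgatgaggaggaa
Gsdme: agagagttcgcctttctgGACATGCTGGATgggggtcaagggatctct
Il18: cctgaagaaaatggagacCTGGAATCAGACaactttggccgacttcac
The capitals encode residues 273 to 276 of gasdermin D, 267 to 270 of gasdermin E and 32 to 35 of pro-IL-18. In Gsdmd (chr15:75862327-75867408, plus strand) the printed stretch joins exons 7 and 8 of 11, at chr15:75866149-75866176 and chr15:75866296-75866315. In Gsdme (chr6:50188888-50263862, minus strand) it lies within exon 7 of 11, at chr6:50222770-50222817. In Il18 (chr9:50554827-50581840, plus strand) it crosses exons 1 to 3 of 5, at chr9:50575348-50575348, chr9:50576694-50576705 and chr9:50577761-50577795. Gsdmd and Gsdme share 46.3% of coding bases, and with the Gsdmc genes Gsdmd shares 49.4% to 50.8% and Gsdme 45.4% to 45.9%. Casp1 (chr9:5298517-5307265) and Casp4 (chr9:5308828-5336783) are neighbours on the plus strand of chromosome 9, 1562 bases apart, and share 56.0% of coding bases.

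Casp1 had the highest level per length of the 9 genes in WT crypts, at 77.4 ± 2.5 FPKM (SD, n = 4, as for the following means). It was followed by Gsdmc4 at 45.3 ± 15.2, Gsdmc2 at 27.5 ± 9.4, Gsdmd at 18.9 ± 7.7, Gsdmc3 at 10.8 ± 3.8 and Il18 at 10.0 ± 2.4 FPKM. Casp4 stood at 4.80 ± 0.90 FPKM, Gsdme at 1.76 ± 0.36 and Gsdmc at 0.032 ± 0.038 FPKM. The ranges of the WT mice overlapped between each neighbour in this order from Gsdmc4 to Il18. Within each WT mouse, Gsdmc4 stood above Gsdmc2 and Gsdmd above Gsdmc3 in 4 of 4, Gsdmc2 above Gsdmd in 3 of 4 and Gsdmc3 above Il18 in 2 of 4. The WT ranges of Gsdmc4 and Gsdmd also overlapped, while Gsdmc4 and Gsdmc2 lay wholly above Gsdmc3 and Il18, and Gsdmd wholly above Il18. Casp1 lay above, and Casp4, Gsdme and Gsdmc each lay below the genes before them without overlap. In KO crypts the order of the means was Casp1 (85.6 FPKM), Gsdmc4 (39.1), Gsdmd (33.9), Gsdmc2 (23.7), Il18 (11.2), Gsdmc3 (9.47), Casp4 (6.82) and Gsdme (3.33). The FPKM of Gsdme divide by a gene length of 12742 bases, against a coding sequence of 1539 bases, whereas Gsdmd has a gene length of 2377 bases.

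**Figure D1:**
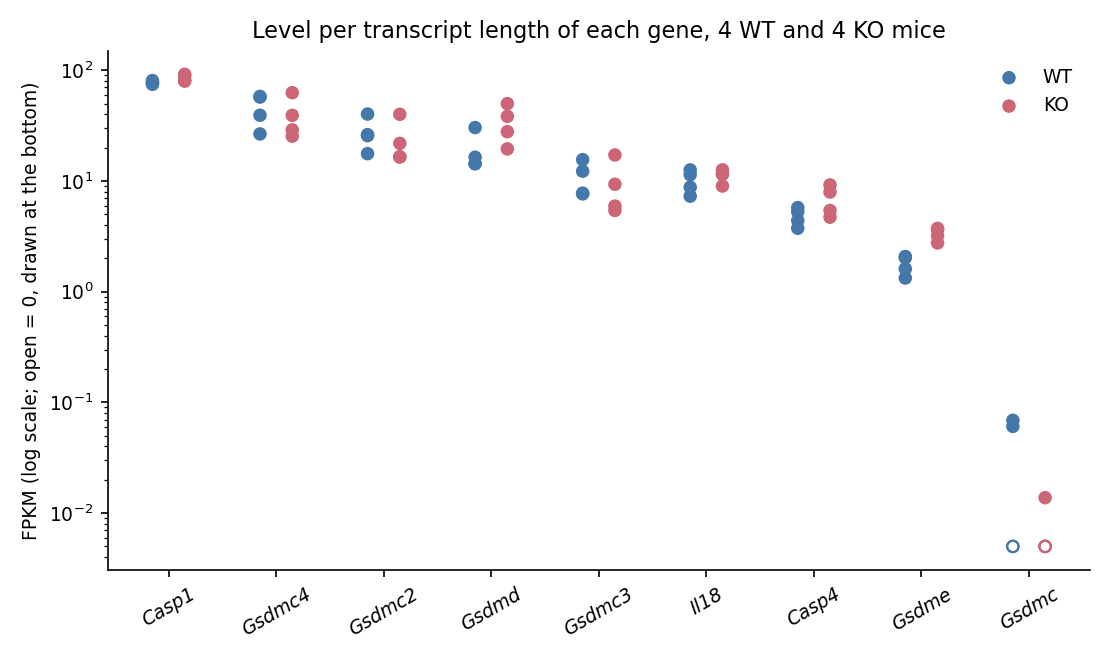
FPKM of the 9 genes on a log axis, each point 1 mouse (blue, 4 WT; red, 4 KO), ordered by the WT mean. Casp1 is highest in every mouse, between 74.7 and 91.9 FPKM, and Gsdmc is at or near 0, with open circles for mice listed at 0.

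Gsdmd, the gasdermin cut by caspase-1 and caspase-4, was measured at 34.6, 39.2, 34.2 and 72.9 CPM in WT mice 1 to 4. In KO mice 1 to 4 it stood at 46.3, 66.4, 119 and 91.6 CPM. All 4 KO mice exceeded the WT mouse with the same number, but WT mouse 4 was above KO mice 1 and 2, and the genotypes overlapped. The log2 fold change of KO over WT was 0.84 ± 0.32 (SE), or 1.79-fold. The pair differences on the log2 CPM scale were 0.42, 0.76, 1.80 and 0.33, with a mean of 0.59 in the mice with Y-linked transcripts and 1.06 in those with Xist. Without KO mouse 3 the log2 fold change was 0.59, and without WT mouse 4 it was 1.17.

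Gsdme, the gasdermin cut by caspase-3, was measured at 17.2, 26.7, 20.6 and 26.0 CPM in WT and at 35.1, 40.7, 46.5 and 47.7 CPM in KO mice 1 to 4. All KO mice were above all WT mice, the only one of the 8 members that passed the filter for which the genotypes did not overlap. Over all genes tested, 2.17% had every KO mouse above every WT mouse and 1.87% every KO mouse below, and since the members were chosen with this contrast known, nothing is read from the count. The log2 fold change was 0.91 ± 0.16 (SE), or 1.88-fold, and it stayed between 0.65 and 0.999 under all alternatives, the lowest with 1 added to FPKM, which understates the change of a gene at this level. The pair differences were 1.03, 0.61, 1.17 and 0.87. The end of Gsdme overlaps Mpp6 on the opposite strand, and whether reads were counted by strand is not given in the sources used here. Mpp6 had a log2 fold change of -0.06 ± 0.10, at 37.2 to 50.9 CPM in WT and 39.0 to 45.2 CPM in KO mice.

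**Figure D2:**
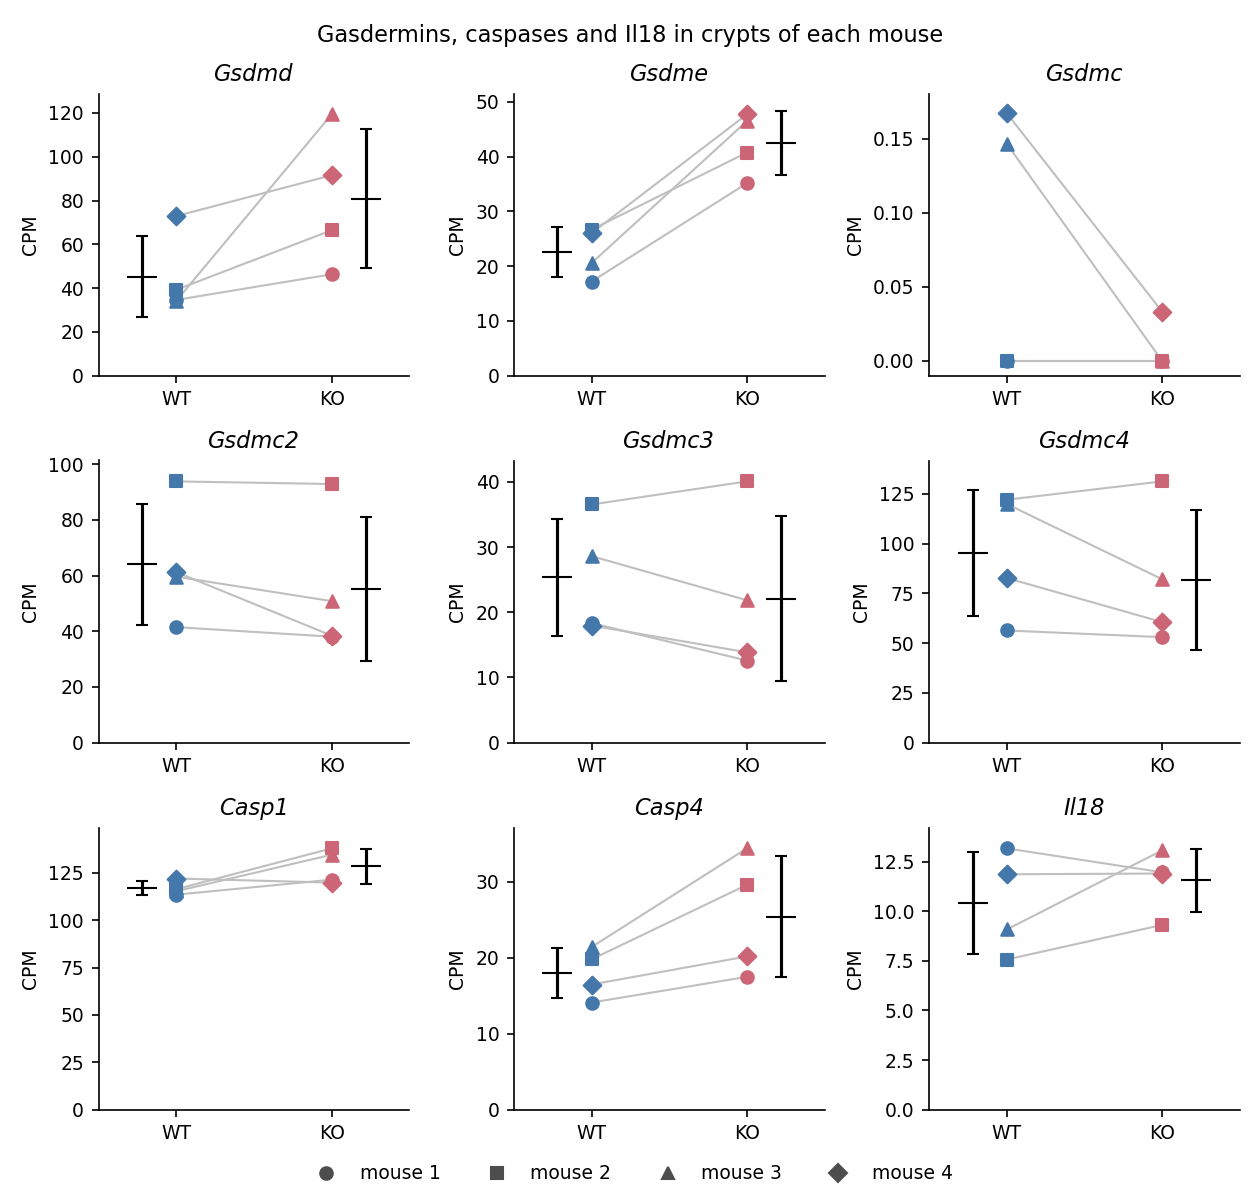
CPM of each of the 9 genes in 4 WT (blue) and 4 KO (red) mice, with lines joining mice of the same number and black bars for the mean ± SD (not drawn for Gsdmc, which has 8 counts in all). Gsdme is the gene whose genotypes do not overlap, and mouse 2 is the highest for Gsdmc2, Gsdmc3 and Gsdmc4 in both genotypes.

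The Gsdmc genes varied more between mice than between genotypes. Gsdmc2 stood at 41.5, 93.9, 59.6 and 61.2 CPM in WT mice 1 to 4 and at 38.1, 92.9, 50.8 and 38.5 CPM in KO mice 1 to 4. Gsdmc3 stood at 18.3, 36.5, 28.6 and 18.0 CPM in WT and at 12.6, 40.1, 21.9 and 13.9 CPM in KO mice. Gsdmc4 stood at 56.4, 122, 120 and 82.7 CPM in WT and at 53.0, 131, 82.1 and 60.6 CPM in KO mice. In all 3 genes mouse 2 was the highest of its genotype, and the genotypes overlapped. The log2 fold changes were -0.22 ± 0.32 for Gsdmc2, -0.20 ± 0.38 for Gsdmc3 and -0.22 ± 0.32 for Gsdmc4 (SE), each smaller than its error. Without WT mouse 2 they were 0.02 for Gsdmc2 and 0.03 for Gsdmc3, and without KO mouse 2 they were -0.59, -0.66 and -0.55 for Gsdmc2, Gsdmc3 and Gsdmc4. With the replicate block, that is, with the mouse number as a term of the fit, the errors fell to 0.11, 0.13 and 0.12, while the log2 fold changes were -0.26, -0.29 and -0.24. The mean pair differences were -0.07, -0.20 and 0.01 in the mice with Y-linked transcripts and -0.45, -0.38 and -0.50 in those with Xist, and the difference between sexes was not tested.

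Since reads may be split among these near copies, the counts of Gsdmc, Gsdmc2, Gsdmc3 and Gsdmc4 were also summed. The sum was 116, 252, 208 and 162 CPM in WT and 104, 264, 155 and 113 CPM in KO mice 1 to 4, with a log2 fold change of -0.22 ± 0.32. Within a mouse, Gsdmc4 took 48.4% to 57.6% of the summed counts, Gsdmc2 28.6% to 37.8% and Gsdmc3 11.1% to 15.8%, so the proportions moved far less than the sum. Gsdmc itself had 8 counts in all, 0, 0, 3 and 4 in WT and 0, 0, 0 and 1 in KO mice 1 to 4. A count of 0 allows up to 3 counts, or 0.116 to 0.140 CPM in the 5 mice at 0, for counting error only, so the gene was not detectable at this depth there, and no fold is given. The pseudogene Gsdmcl2, which lies between Gsdmc3 and Gsdmc4 on the plus strand, had 63 to 226 counts and was also highest in mouse 2 of each genotype, at 9.95 CPM in WT and 8.77 CPM in KO. It shares no stretch of 50 bases with the Gsdmc transcripts.

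**Figure D3:**
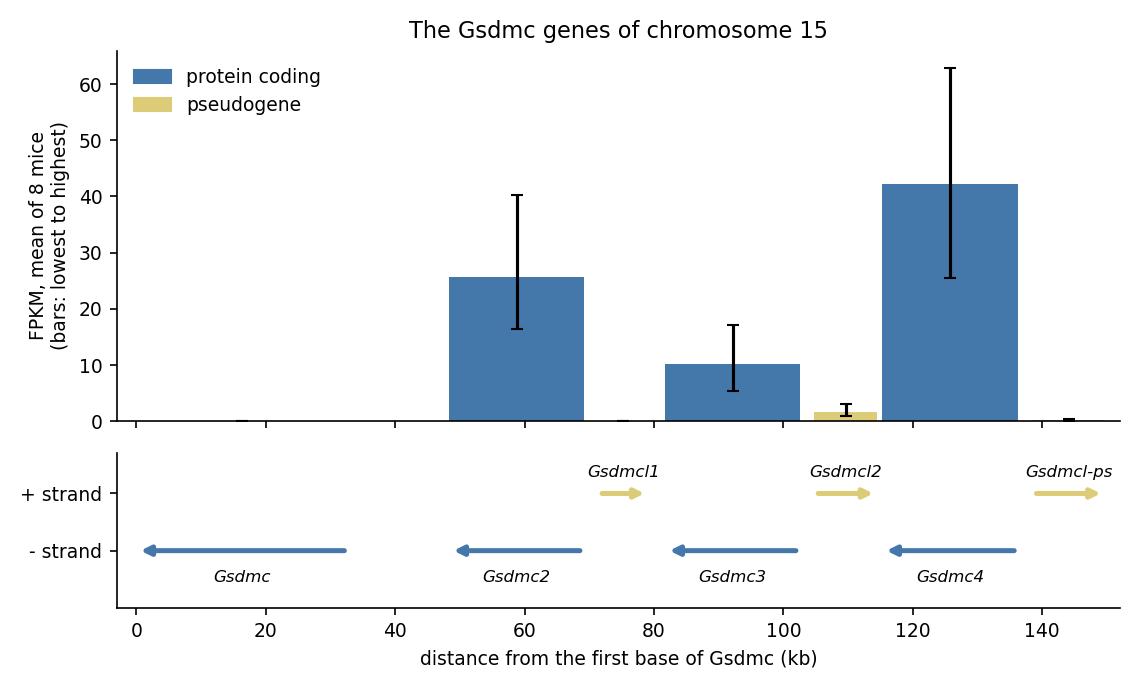
Upper panel, mean FPKM of 8 mice (blue, protein-coding genes; yellow, pseudogenes), with black bars from the lowest to the highest mouse. Lower panel, extent and direction of each gene against the distance in kb from the first base of Gsdmc. Gsdmc4 has the tallest bar, at 42.2 FPKM, and Gsdmc, at the left edge, is at 0.018 FPKM.

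Casp1, the inflammasome caspase, was nearly constant. It stood at 113, 116, 115 and 122 CPM in WT and at 121, 138, 135 and 120 CPM in KO mice 1 to 4, and the genotypes overlapped. The log2 fold change was 0.14 ± 0.07 (SE). Its spread within genotypes, an SD of 0.08 on the log2 CPM scale, was the smallest of the 8 members tested, against 0.64 for Gsdmc3. Casp4, the caspase that senses lipopolysaccharide, stood at 14.1, 19.8, 21.4 and 16.5 CPM in WT and at 17.5, 29.6, 34.4 and 20.1 CPM in KO mice. All 4 KO mice exceeded the WT mouse of that number, and KO mice 2 and 3 were above all WT mice, while KO mice 1 and 4 lay within the WT range. The log2 fold change was 0.50 ± 0.23 (SE), or 1.42-fold, with pair differences of 0.31, 0.58, 0.68 and 0.29. With the replicate block it was 0.47 ± 0.11 (SE).

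Il18, the cytokine matured by caspase-1, stood at 13.2, 7.57, 9.08 and 11.9 CPM in WT and at 12.0, 9.31, 13.1 and 11.9 CPM in KO mice 1 to 4. The KO mice lay within the WT range, and the log2 fold change was 0.15 ± 0.19 (SE). Over the 8 members tested, 5 had a higher mean in KO (Gsdmd, Gsdme, Casp1, Casp4 and Il18) and Gsdmc2, Gsdmc3 and Gsdmc4 a lower one. Their median log2 fold change was 0.14 (-0.02 over all genes tested), from which nothing is read, since this contrast was known when they were chosen. The start of Il18 overlaps Bco2 on the opposite strand, which had a log2 fold change of 0.30 ± 0.25.

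Whether the members varied together was asked of the log2 CPM after the mean of each genotype was taken out, which removes the contrast used to choose them. All 28 pairs of the 8 members tested were examined over the 8 mice with a two-sided exact permutation test within genotypes (576 arrangements). None of the 28 passed 0.05 after Benjamini-Hochberg adjustment by either coefficient. The unadjusted p was under 0.05 for 8 pairs by Pearson's r and for 5 by Spearman's rho. Gsdmc3 and Gsdmc4 had the lowest p by Pearson's r, with Pearson's r = 0.94 (exact permutation p = 0.0052, adjusted p = 0.113) and Spearman's rho = 0.86 (exact permutation p = 0.0122, adjusted p = 0.162). Gsdmc2 had r = 0.92 with each of Gsdmc3 and Gsdmc4 (exact permutation p = 0.0122 and 0.0087, adjusted p = 0.113 for both), with rho = 0.71 and 0.90 (exact permutation p = 0.0729 and 0.0122, adjusted p = 0.243 and 0.162). These genes may share reads. Without the 2 mice farthest from the median of the first gene of each pair, r was 0.86 for Gsdmc3 and Gsdmc4, 0.68 for Gsdmc2 and Gsdmc3 and 0.88 for Gsdmc2 and Gsdmc4. Gsdmc4 and Casp4 had r = 0.82 and rho = 0.81 (exact permutation p = 0.0295 for both, adjusted p = 0.132 and 0.207), and r = 0.83 without the 2 farthest mice. Gsdmc2 and Casp1 had r = 0.71 and rho = 0.81 (exact permutation p = 0.0660 and 0.0174, adjusted p = 0.185 and 0.162), and r = 0.81 without the 2 farthest mice. Gsdmd and Gsdme had r = 0.74 and rho = 0.76 (exact permutation p = 0.0486 and 0.0503, adjusted p = 0.170 and 0.235), and r = 0.71 without them. Il18 went the other way from Gsdmc2, Gsdmc3 and Gsdmc4, with r = -0.80, -0.77 and -0.81 (exact permutation p = 0.0191, 0.0330 and 0.0243, adjusted p = 0.132 for all 3) and rho = -0.60, -0.60 and -0.79 (exact permutation p = 0.160, 0.0903 and 0.0382, adjusted p = 0.319, 0.243 and 0.214). Without the 2 farthest mice these r were -0.33, -0.38 and -0.65, so the relation with Gsdmc2 and Gsdmc3 rests largely on those mice. Deviations of same-numbered mice, which share a sex, correlated at 0.129 to 0.501 over all genes and at 0.0873 to 0.481 without sex-linked genes. Mice of different numbers were not compared. The 8 mice may therefore not be fully independent points.

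Marker lists of cell types and regions were read beside these values. The 7 villus enterocyte markers summed to 2076, 1371, 2100 and 3044 CPM in WT and to 1963, 2295, 6971 and 4241 CPM in KO mice 1 to 4. The 3 mice with the highest sums, KO mouse 3, KO mouse 4 and WT mouse 4, were also the 3 with the highest Gsdmd. Of these 7 markers, 1 (Apoa1, an apolipoprotein of villus enterocytes) had an unadjusted p under 0.05 and was higher in KO, and all 7 had a higher mean in KO. The 5 crypt base stem cell markers summed to 4244 to 4977 CPM in WT and to 3151 to 3919 CPM in KO mice without overlap. Most of each sum was Olfm4, at 3605 to 4478 CPM in WT and 2620 to 3366 CPM in KO mice. Alone, Olfm4 and Smoc2 did not overlap between genotypes, while Lgr5, Ascl2 and Axin2 did. Lgr5, Olfm4 and Smoc2 were lower at an unadjusted p under 0.05. The 6 T cell markers were scarce, at 4.49 to 11.1 CPM in sum in WT and 7.05 to 28.4 CPM in KO mice, with Cd3e, Cd8a and Trac past this threshold and higher in KO, and KO mice 3 and 4 had the highest sums. All 4 ileum markers (Fabp6, Slc10a2, Slc51b and Osr2) were higher in KO, with sums of 109 to 385 CPM in WT and 415 to 799 CPM in KO mice. The genotypes overlapped for each of these markers alone. Of the other lists, those of epithelium (Vil1 and Krt8) and goblet cells (Fcgbp and Zg16) each had 2 of 6 markers higher in KO, and those of enteroendocrine cells (Pax4), the proximal small intestine (Onecut2) and blood (Hba-a1) each had 1 lower, of 4, 4 and 1 tested. The lists of Paneth cells, tuft cells, the colon, myeloid cells, B or plasma cells and stroma had none. By the same measure in edgeR, 5.33% of all genes tested were higher in KO mice and 3.05% lower, and none of these markers passed adjustment in edgeR, while Krt8 and Onecut2 did in DESeq2. The part of these markers in the values of Gsdmd, Gsdme and Casp4 was not tested.

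**Figure D4:**
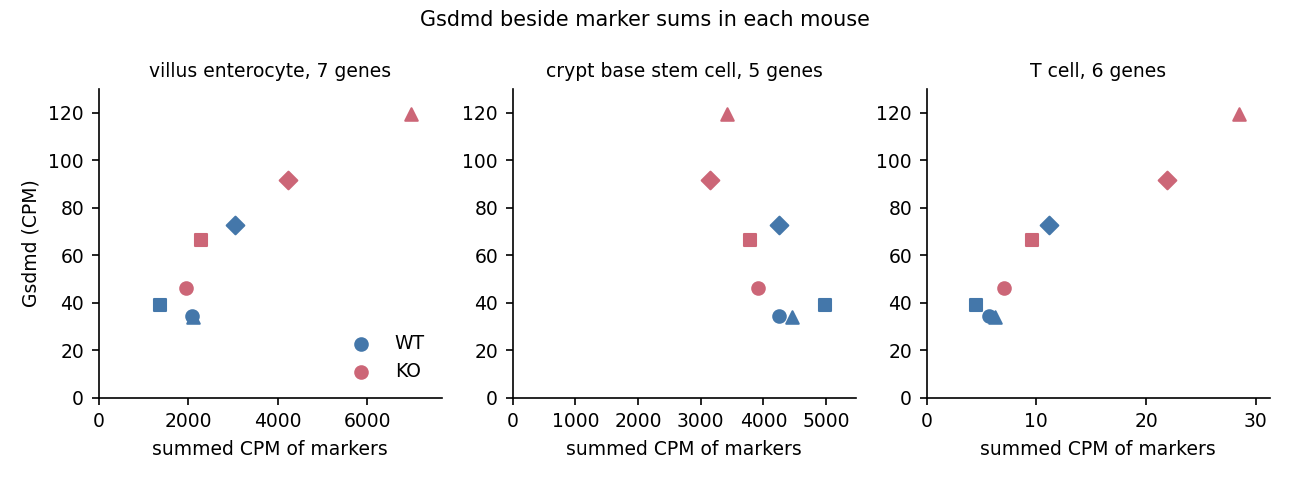
Gsdmd (CPM, vertical axis) against the summed CPM of villus enterocyte, crypt base stem cell and T cell markers (horizontal axes), each point 1 mouse (blue, WT; red, KO; circle, square, triangle and diamond for mice 1 to 4). The red triangle, KO mouse 3, is highest for Gsdmd (119 CPM) and for the villus sum (6971 CPM) and T cell sum (28.4 CPM).

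The rest of the pathway was read from 51 further genes listed by role, of which 39 passed the filter on low counts. In edgeR's test the unadjusted p of 7 of the 39, or 17.9%, was under 0.05 (8.38% of all genes tested). The list was also chosen with earlier results of these mice known, so its share of calls and its median are descriptions and no evidence that it stands apart. All 7 were higher in KO (Nlrp9b, Naip5, Serpinb1a, Gzma, Gzmb, Il1b and Zbp1) and none was lower. With the replicate block 8 were higher and 1 (Casp6) was lower, 9 of 39 (11.3% of all genes tested in that fit), and without WT mouse 2 there were 5 higher and 2 lower (Casp6 and Nek7, both named after their values were seen). None passed 0.05 after Benjamini-Hochberg adjustment over all genes in edgeR (lowest adjusted p = 0.379, for Serpinb1a), nor with the replicate block or in limma on FPKM, whereas 2 did in DESeq2 (Nlrp9b and Serpinb1a). The median log2 fold change of the 39 was 0.09 (-0.02 over all genes tested).

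Inflammasome sensors included 2 of the 7, of 9 tested. Nlrp9b, a sensor of viral RNA in intestinal epithelium, stood at 2.50, 4.44, 1.90 and 5.85 CPM in WT and at 6.51, 20.3, 13.3 and 11.4 CPM in KO mice 1 to 4. The genotypes did not overlap, and the log2 fold change was 1.80 ± 0.42 (edgeR, adjusted p = 0.502). The ileum marker sums given above did not overlap either, although the genotypes overlapped for each of the 4 markers alone. The part of these markers in the value of Nlrp9b was not tested. Naip5, a receptor for bacterial flagellin, stood at 76.7, 74.9, 76.7 and 93.6 CPM in WT and at 80.4, 112, 147 and 129 CPM in KO mice, a log2 fold change of 0.54 ± 0.17 (edgeR, adjusted p = 0.518). KO mouse 1 lay within the WT range. Its close relative Naip6 had a log2 fold change of 0.18 ± 0.28, and Naip genes can share reads. Naip6 stood at 132 to 168 CPM in WT and at 75.1, 219, 204 and 193 CPM in KO mice 1 to 4. Only KO mouse 1 was not above all WT mice. Nlrp6, an epithelial sensor and the sensor with the highest level, stood at 407 to 459 CPM in WT and 384 to 413 CPM in KO mice, a log2 fold change of -0.11 ± 0.07.

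Among adaptors and regulators 1 of 8 was higher. Serpinb1a, an inhibitor of neutrophil proteases and inflammatory caspases, stood at 220, 239, 261 and 244 CPM in WT and at 299, 369, 388 and 325 CPM in KO mice 1 to 4. The genotypes did not overlap, and the log2 fold change was 0.52 ± 0.10 (edgeR, adjusted p = 0.379). Pycard, the adaptor ASC that links sensors to caspase-1, stood at 212 to 274 CPM in WT and 205 to 283 CPM in KO mice, a log2 fold change of 0.02 ± 0.12.

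Among other proteases that can cut gasdermins, Gzma and Gzmb were higher, of 6 tested. They encode granzymes of cytotoxic lymphocytes. Granzyme A cuts human gasdermin B, and granzyme B cuts gasdermin E. Gzma stood at 4.07, 3.83, 10.1 and 20.3 CPM in WT and at 10.9, 19.2, 43.3 and 26.5 CPM in KO mice 1 to 4, a log2 fold change of 1.38 ± 0.58 (edgeR, adjusted p = 0.576). Gzmb stood at 4.71, 3.27, 4.79 and 13.0 CPM in WT and at 7.30, 12.5, 25.9 and 22.2 CPM in KO mice, a log2 fold change of 1.39 ± 0.50 (edgeR, adjusted p = 0.533). Both were highest in KO mouse 3, which also had the highest T cell marker sum, and the genotypes overlapped for both. Without KO mouse 3 the unadjusted p was 0.124 for Gzma and 0.0576 for Gzmb. It was also over 0.05 for Gzma without WT mouse 1, 2 or 3 or KO mouse 4 (0.0677 to 0.0923), and for Gzmb without WT mouse 1 or 3 (0.0526 and 0.0525). The part of T cell number in these values was not tested. Casp8, which can cut gasdermin C and gasdermin D, had a log2 fold change of 0.01 ± 0.10.

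Of 4 cytokine, receptor and decoy genes tested, Il1b was higher. It encodes the other cytokine matured by caspase-1 and rested on 8 to 18 counts in WT and 24 to 67 counts in KO mice, with a log2 fold change of 1.18 ± 0.36 (edgeR, adjusted p = 0.518) and no overlap. Il18bp, the decoy that binds IL-18, stood at 4.47 to 5.31 CPM in WT and 5.58 to 7.41 CPM in KO mice, a log2 fold change of 0.33 ± 0.15 (edgeR, adjusted p = 0.616), also without overlap. Il18r1, the receptor of IL-18, had a log2 fold change of -0.07 ± 0.35. Of the necroptosis partners 1 of 4 was higher. Zbp1, a sensor of Z-form nucleic acid, stood at 4.44, 4.39, 5.62 and 13.2 CPM in WT and at 10.2, 17.0, 10.0 and 17.6 CPM in KO mice, a log2 fold change of 0.98 ± 0.38 (edgeR, adjusted p = 0.557). Without WT mouse 1, 2 or 3 or KO mouse 2 or 4 its unadjusted p was over 0.05 (0.0711 to 0.0758). Ripk3 and Ripk1, the kinases of necroptosis, had log2 fold changes of 0.15 ± 0.08 and -0.002 ± 0.077.

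None of the 4 genes of membrane rupture, repair or release and none of the 3 transcription factors that induce members had an unadjusted p under 0.05. Chmp4b, of the membrane repair complex, had a log2 fold change of 0.12 ± 0.08 and Hmgb1, a protein released from dying cells, one of -0.07 ± 0.12. Irf1 and Irf2, which drive caspase and Gsdmd transcription, had log2 fold changes of 0.05 ± 0.13 and -0.01 ± 0.08. Of the 4 remaining gasdermin genes only Gsdma2 passed the filter, at 2.45 to 13.4 CPM in WT and 1.90 to 6.05 CPM in KO mice, with a log2 fold change of -0.73 ± 0.58, while Gsdma stood at no more than 0.37 CPM in any mouse.

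**Figure D5:**
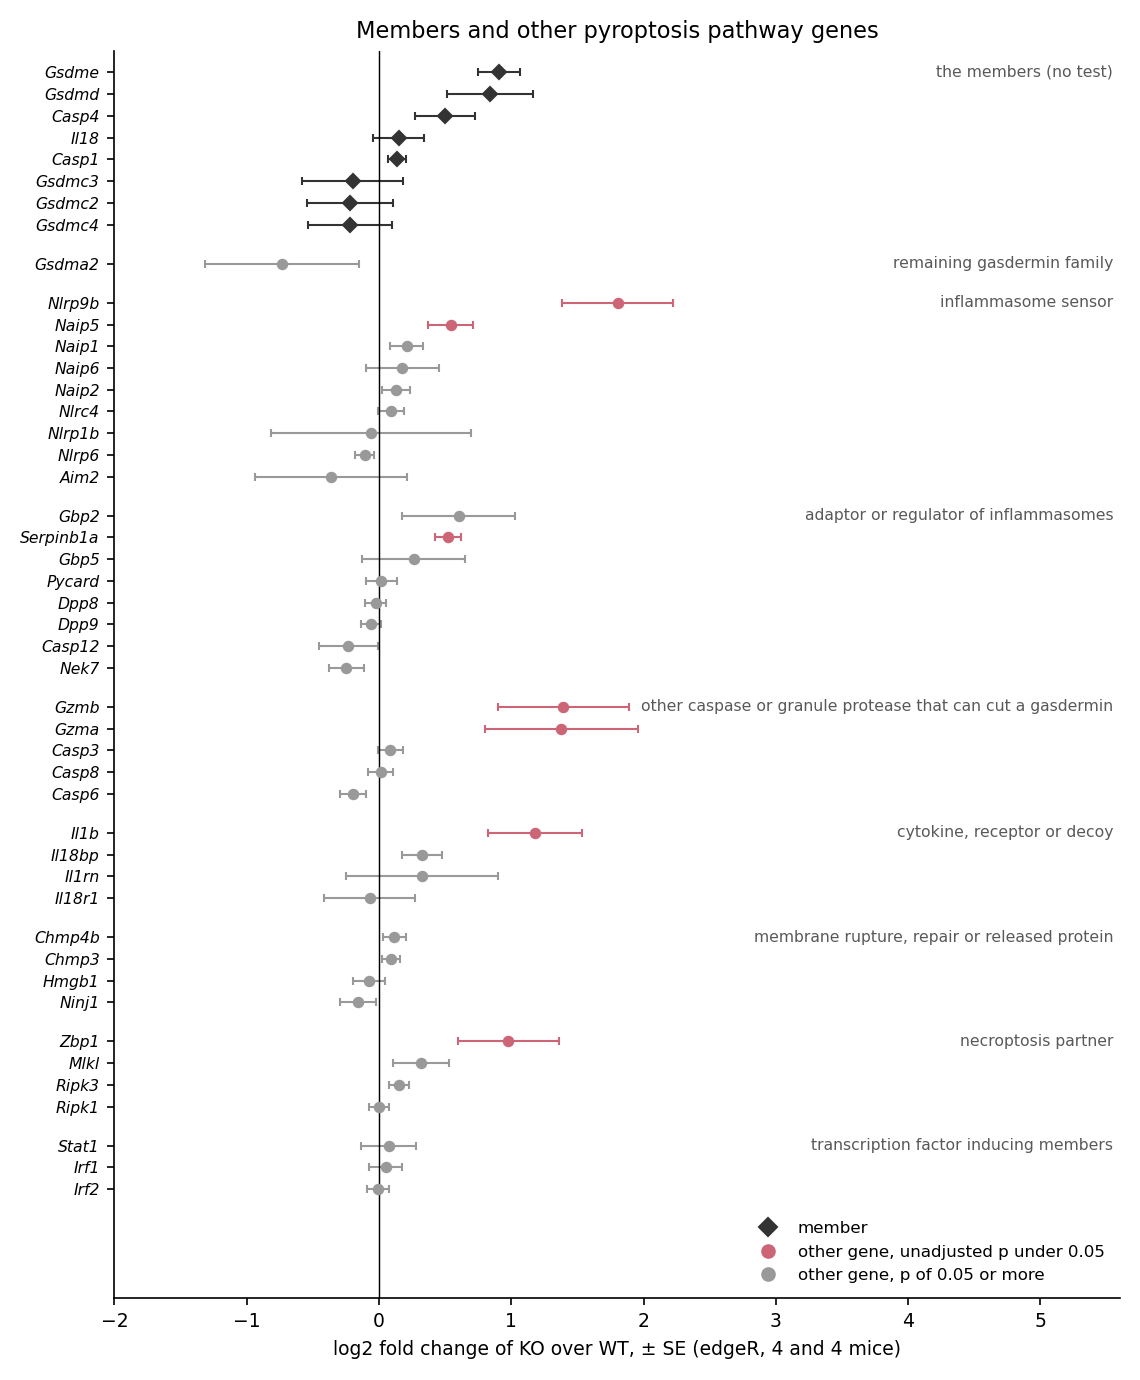
Log2 fold change of KO over WT with its SE (horizontal axis, edgeR, 4 WT and 4 KO mice) for the 8 members tested (black diamonds, no test) and other pathway genes that passed the filter, grouped by role. Red circles mark the 7 genes with an unadjusted p under 0.05, all to the right of 0, from Serpinb1a at 0.52 to Nlrp9b at 1.80.

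Because Gsdmc genes are known targets of type 2 cytokines, 11 genes of that response, listed with the same earlier results known, were read beside them, 9 of which passed the filter. At an unadjusted p under 0.05 (edgeR), 1 of the 9 differed, and it was lower in KO (11.1% of the list, against 8.38% of all genes), and none passed adjustment in edgeR or limma. In DESeq2 none passed either, but it gave no adjusted p for Retnlb. It was Retnlb, a resistin-like protein that goblet cells secrete in type 2 immunity, which rested on 52, 48, 19 and 14 counts in WT and 1, 13, 13 and 8 counts in KO mice 1 to 4, a log2 fold change of -2.15 ± 0.64 (edgeR, adjusted p = 0.518). With the replicate block 3 of the 9 had an unadjusted p under 0.05, against 11.3% of all genes tested in that fit, with Retnlb and Dclk1 lower and Clca1 higher. The most abundant of the list were Ang4, an antimicrobial ribonuclease, with a log2 fold change of -0.90 ± 0.55, and Clca1, a secreted goblet cell protein, with 0.38 ± 0.32. Clca1 stood at 362, 872, 834 and 978 CPM in WT and at 562, 1114, 1193 and 1088 CPM in KO mice. Stat6, the transducer of the response, had a log2 fold change of -0.01 ± 0.07. Mouse 2 was not the highest in either genotype for Clca1, Ang4, Retnlb or Stat6. It was the highest WT mouse for Dclk1, Trpm5 and Pou2f3, and the highest KO mouse for Il4ra and Il13ra1. The part of the type 2 response in the height of mouse 2 for Gsdmc2, Gsdmc3 and Gsdmc4 was not tested.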

How the data were processed

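For every mouse the authors deposited the number of reads on each gene as unnormalized counts, and FPKM values of the same genes. HISAT2 2.0.5, featureCounts 1.5.0-p3 and CASAVA are named in the submitters' processing notes, while strand and multiple-match settings are not given in the sources used here. Divided by count over gene length, the deposited FPKM values gave 1 constant per library. The deposited fold changes and p-values of the authors' own comparison were not used. The coordinates in the files are those of GRCm38: all 9 members have the start and end of GENCODE M21, from whose consensus coding (CCDS) transcripts the printed sequences were read.

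Counts were fitted with edgeR 4.0.16 in R 4.3.3 (filterByExpr with a minimum count of 10, TMM factors, quasi-likelihood test, genotype as the only term, all 8 mice). The SE is the log2 fold change divided by the square root of F. The Benjamini-Hochberg adjustment ran over all genes tested, 0.05 was the threshold, and p-values measure the spread between these mice. The alternatives were DESeq2 1.42.0, limma 3.58.1 on log2(FPKM + 1) and log2(FPKM + 0.1) for genes with a mean FPKM of at least 0.1, RLE factors, other filters, each mouse left out, the Gsdmc genes summed, and the mouse number as a block. Deviations of same-numbered mice, which share a sex, correlated at 0.129 to 0.501 over all genes. With sex-linked genes left out the range was 0.0873 to 0.481, and 2 pairs of 4 fell under 0.1. The numbers, shared in the labels, were taken to pair the mice on the first of these, only in the fit with the block and in the pair differences. Scripts were tested on simulated data.

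The members and the lists of pathway and marker genes were chosen with earlier results of these data known. Named are all members, each listed pathway or type 2 gene with an unadjusted p under 0.05, the 2 most abundant genes of each role or list, the 2 genes most like each member over the 8 mice (no members, mean log2 CPM of at least 1), and Mex3a. Marker genes, Ddx3y, Xist and genes that overlap or lie beside members by position were named outside this rule. So were Stat6, Dclk1, Casp6, Nek7, Dpp9, Aim2, Nlrp1b, Trpm5, Pou2f3, Il4ra and Il13ra1. Some genes that the rule names are not reported here. Pearson's and Spearman's coefficients were computed with scipy and Python.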

Additional observations from a re-analysis of the deposited data

Results flagged for a closer look

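In groups of 4 mice, a mouse was called apart where its gap to the nearest other mouse exceeded Dixon's 95% critical share of the range of its group. 116 groups of members, listed genes that passed the filter on low counts and Mex3a were examined and 10 passed, where chance gives about 1 in 20, or 5.8. WT mouse 4 was apart from the other WT mice for 5 genes, always upwards: Gsdmd at 72.9 CPM (others 34.2 to 39.2), Naip5 at 93.6 CPM (others 74.9 to 76.7), Gzmb at 13.0 CPM (others 3.27 to 4.79), Zbp1 at 13.2 CPM (others 4.39 to 5.62) and Gsdma2 at 13.4 CPM (others 2.45 to 4.20). This mouse also had the highest villus enterocyte and T cell marker sums (3044 and 11.1 CPM) and the highest mitochondrial share (11.6%) of the WT mice, and the part of these was not tested.

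KO mouse 2 was apart upwards for Dpp9 at 83.8 CPM (others 74.6 to 75.8), Irf1 at 190 CPM (others 153 to 157) and Il18bp at 7.41 CPM (others 5.58 to 5.89). KO mouse 1 was apart downwards for Clca1 at 562 CPM (others 1088 to 1193). Gsdmc was apart in KO mouse 4 at 0.0332 CPM, which is 1 count against 0 in the other KO mice, where any single count passes by construction. Listed genes under the filter were not examined.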

How the results depend on the processing

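The log2 fold changes of Gsdmd, Gsdme, Casp1, Casp4 and Il18 stayed above 0 in all 15 alternatives, from 0.59 to 1.17 for Gsdmd, 0.65 to 0.999 for Gsdme, 0.10 to 0.17 for Casp1, 0.32 to 0.64 for Casp4 and 0.02 to 0.28 for Il18. Gsdmc4 stayed below 0 in 15 of 15, while Gsdmc2 and Gsdmc3 did in 14 of 15, with 0.02 and 0.03 without WT mouse 2. The replicate block (the pairing of mice by number) changed no direction of a member. The 1 gene with an adjusted p under 0.05, Mex3a, became 0 genes with the block and with at least 10 counts required in every mouse, which leaves Mex3a out, 2 with no filter on low counts, 4 in limma with 0.1 added to FPKM and 93 in DESeq2, and 0 to 4 with 1 mouse left out. The count of other pathway genes with an unadjusted p under 0.05 was 5 to 10 with 1 mouse left out and 6 to 9 in the other alternatives, 9 with the block (8 higher, 1 lower), and all calls were higher in KO except there and without WT mouse 2 (5 higher, 2 lower). Naip5, Nlrp9b, Serpinb1a and Il1b kept an unadjusted p under 0.05 in every alternative that tested them, and Gzma and Zbp1 did in 10 of 15 and Gzmb in 12 of 15. For the type 2 list the count of 1 became 2 in DESeq2, 2 with no filter, 0 with at least 10 counts in every mouse, which leaves Retnlb out, 3 with the block, and 1 to 4 with 1 mouse left out. The cause of the other changes was not tested. Depth limits Gsdmc, Il1b and Retnlb, which rest on few counts.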

Other observations

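For each member that passed the filter, the 2 genes with the highest Pearson's r of log2 CPM over the 8 mice are given as a description, among 12370 genes that are no members and have a mean log2 CPM of at least 1. Genotype, library and depth are shared by all points, so r also holds the difference between genotypes. Gsdmd was most like Eci3 (r = 0.99, rho = 0.98) and Exoc3l4 (r = 0.99, rho = 0.93). Exoc3l4 stood at 11.8 ± 8.9 CPM in WT and 33.9 ± 26.0 CPM in KO mice (SD, n = 4). Gsdme was most like Trpm6 (r = 0.98, rho = 0.98) and Igsf5 (r = 0.98, rho = 0.98). Trpm6 stood at 6.26 ± 0.63 CPM in WT and 9.55 ± 0.96 CPM in KO mice.

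The genes most like the Gsdmc genes differed less between genotypes. Nothing is read from this, since r over both genotypes favours genes that share the difference of the member. Gsdmc2 was most like Ammecr1 (r = 0.98, rho = 0.93), Gsdmc3 like Sec22b (r = 0.97, rho = 0.95) and Taf6 (r = 0.97, rho = 0.90), and Gsdmc4 like Uggt1 (r = 0.99, rho = 0.98) and Tnfrsf11a (r = 0.98, rho = 0.98). The log2 fold changes of these 5 genes lay between -0.08 and -0.03. Casp1 was most like Apaf1 (r = 0.99, rho = 0.93) and Sdcbp (r = 0.96, rho = 0.88), Casp4 like Rnf14 (r = 0.96, rho = 0.93) and Tnfaip1 (r = 0.95, rho = 0.93), and Il18 like Gm8116 (r = 0.96, rho = 0.95) and Ldlrad4 (r = 0.96, rho = 0.83). Apaf1, the scaffold of the apoptosome, stood at 65.0 ± 3.8 CPM in WT and 80.3 ± 12.6 CPM in KO mice.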
